A study of Mus musculus with 12 samples.

Results

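The constitutive proteasome subunit genes build the protein-degrading machine that every cell carries. They were taken as the protein-coding genes whose GRCm38 symbol joins Psma, Psmb, Psmc or Psmd to a number. Psmb8, Psmb9 and Psmb10, which encode the inducible catalytic subunits of the immunoproteasome, were set aside. This found 36 of the 49315 gene IDs in the count tables, 16 of the core particle (Psma and Psmb) and 20 of the regulatory particle (Psmc and Psmd). The filter on low counts left 14061 genes, among them 35 of the 36. Psmb11, the form of the thymus, had 0 counts in every library, which allows at most 3 counts, or 0.112 to 0.172 CPM (for counting error only, as reads carried no molecular identifiers). Psma8, the form of the testis, passed the filter at 0.2854 to 3.648 CPM. The other 34 genes, called standard members here, were at 15.21 CPM or more in every library, so the filter did not choose among them.

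The proteasome unfolds and cuts proteins that carry ubiquitin chains. Its core is a barrel of stacked rings: outer alpha rings, which gate the entrance, and inner beta rings, in which 3 subunits cut peptide bonds. A regulatory particle caps the barrel. Its base holds a ring of ATPases that unfold and thread the substrate, and its lid removes the ubiquitin chain. In the liver, as elsewhere, subunit genes are known to be transcribed together, and the factors Nfe2l1 and Nfe2l2 can raise them when proteasome activity is short or under oxidative stress.

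RNA was sequenced from hepatocytes of C57BL/6 mice, freed by collagenase perfusion and sorted by a reporter and by Hoechst-stained DNA content. The groups were diploid and polyploid hepatocytes of young mice (3 months) and diploid and polyploid hepatocytes of aged mice (27 months), 3 libraries each and 12 in all. All groups thus share the strain, the perfusion and the reporter sort, and the labels name neither the reporter nor the allele that carries it. The series names 3 mice of each age as the source of both kinds of cell, and the replicate number was read as the mouse. The labels give no treatment. Levels below are CPM, counts set against library size and scaled by TMM factors. They are given by library in the order of replicates 1, 2 and 3, with mean ± SD (n = 3).

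Total counts were 17413153 to 26760570 per library, so 1 CPM stands for 17.4 to 26.8 counts. Hepatocyte markers were present in every library (30 of 30 genes, 175400 to 233400 CPM in sum in 10 of the 12). The aged diploid libraries differed most. Replicate 2 of that group had 32610 CPM of hepatocyte markers and replicate 1 had 154800 CPM, and 12 macrophage and Kupffer cell markers summed to 5068, 22040 and 1157 CPM in its replicates 1, 2 and 3. In aged polyploid libraries these markers summed to 35.89 to 150.4 CPM, and no young library went above 815 CPM. The scaling factor of aged diploid replicate 2 was 1.688, against 0.8368 to 1.136 in the others. In bulk RNA fewer cells of a type and less RNA per cell cannot be told apart, and p-values here measure the spread between these libraries.

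The promoters of 5 members are shown. Psmb4, Psmc4 and Psmd4 are among the 4 members that rose in polyploid cells as described below, and the promoter of Psmd3, also among those 4, is not shown. Psmb5 and Psmb6 encode catalytic subunits whose promoters hold the letters of the element known for Nfe2l1 and Nfe2l2. Each promoter shown runs 5′ to 3′ from 250 bases before to 50 bases after the start site, from RefSeq on GRCm38.p6. Capitals mark every match to 4 motifs on either strand: TGACNNNGC (the antioxidant response element), CCAAT (the NF-Y box), GGGCGG (the Sp1 box) and CGGAAG (the ETS core).
Psmb4 (chr3:94886909-94887208, minus strand): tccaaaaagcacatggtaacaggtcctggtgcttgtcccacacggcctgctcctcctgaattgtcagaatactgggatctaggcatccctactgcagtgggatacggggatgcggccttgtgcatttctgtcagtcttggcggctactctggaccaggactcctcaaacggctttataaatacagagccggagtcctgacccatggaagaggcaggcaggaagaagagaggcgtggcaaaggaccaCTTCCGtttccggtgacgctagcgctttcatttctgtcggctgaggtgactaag
Psmc4 (chr7:28050043-28050342, minus strand): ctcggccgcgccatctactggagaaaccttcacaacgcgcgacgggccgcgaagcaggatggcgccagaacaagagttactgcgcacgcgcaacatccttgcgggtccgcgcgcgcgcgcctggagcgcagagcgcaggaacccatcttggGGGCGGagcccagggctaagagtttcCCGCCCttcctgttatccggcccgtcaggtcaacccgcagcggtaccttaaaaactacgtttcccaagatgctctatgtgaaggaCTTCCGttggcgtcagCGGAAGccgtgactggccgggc
Psmd4 (chr3:95042565-95042864, minus strand): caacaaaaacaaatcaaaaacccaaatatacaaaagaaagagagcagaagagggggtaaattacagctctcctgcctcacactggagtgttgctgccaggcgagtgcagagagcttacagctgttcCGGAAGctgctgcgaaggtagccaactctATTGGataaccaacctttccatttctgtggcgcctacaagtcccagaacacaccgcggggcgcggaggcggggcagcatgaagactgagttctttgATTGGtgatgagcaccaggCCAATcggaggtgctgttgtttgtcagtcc
Psmb5 (chr14:54617946-54618245, minus strand): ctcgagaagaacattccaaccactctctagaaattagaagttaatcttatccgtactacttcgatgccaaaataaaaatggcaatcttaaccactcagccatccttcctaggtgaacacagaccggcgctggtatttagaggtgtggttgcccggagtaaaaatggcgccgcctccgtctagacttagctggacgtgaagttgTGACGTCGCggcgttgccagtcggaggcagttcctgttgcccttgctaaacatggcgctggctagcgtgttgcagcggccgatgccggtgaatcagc
Psmb6 (chr11:70525107-70525406, plus strand): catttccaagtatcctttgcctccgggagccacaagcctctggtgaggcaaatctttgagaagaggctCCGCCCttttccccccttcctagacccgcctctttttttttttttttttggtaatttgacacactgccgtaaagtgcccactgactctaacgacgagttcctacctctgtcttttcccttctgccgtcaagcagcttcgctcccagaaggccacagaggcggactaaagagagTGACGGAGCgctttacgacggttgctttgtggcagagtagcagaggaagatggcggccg

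CGGAAG was found in 18 of the 29 members with a promoter entry (62.1%), against 16.9% of all 32851 promoters of the same length. GGGCGG was also found in 18 of 29 (62.1%, against 35.7% of all). CCAAT was found in 12 of 29 (41.4%, against 37.4% of all) and TGACNNNGC in 5 of 29 (17.2%, against 12.4% of all). Among the promoters printed, Psmc4 holds CGGAAG or its complement at bases 13 and 29 after the start site, Psmd4 at base -124 and Psmb4 at base -4. Psmb5 holds TGACGTCGC at base -47 and Psmb6 TGACGGAGC at base -9. In all, 13 patterns were searched on both strands. The other 9 were CCGGAAG (10 of 29, against 8.86% of all, a longer form of the ETS core), TGACTCAGC (0 of 29, against 0.454%, a strict form of the first motif), CACGTG (2, or 6.9%, against 7.15%), TGACGTCA (0, against 1.79%), ATGGCGG (4, or 13.8%, against 4.05%), TATAAA (3, or 10.3%, against 13.6%), the palindrome of nuclear respiratory factor in a strict form (1, or 3.45%, against 0.971%) and a looser one that includes it (6, or 20.7%, against 4.6%), and the box of Zfp143 (0, against 0.277%). Such matches describe letters in a window and show no binding. The 4 motifs were picked for display after the counts were known.

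Proteasome subunit RNA stood higher against the median gene in polyploid than in diploid hepatocytes of both ages. Over both ages 4 of the 35 members tested rose in polyploid cells: Psmd4, Psmc4, Psmb4 and Psmd3, with 1.46-fold to 1.76-fold higher levels. None fell. Of all genes tested, 8.67% passed in either direction, 0.882% as higher and 7.79% as lower (edgeR quasi-likelihood test, Benjamini-Hochberg adjusted p under 0.05). The log2 difference was above 0 in 33 of the 35 members, with a median of 0.39 over the 35 and -0.06 over all genes. Of the 35, 20 had an unadjusted p under 0.05, against 28.8% of all genes.

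The size of that difference depends on what the libraries are scaled to. Scaling to the summed hepatocyte markers moved the median of all genes by -0.83 on the log2 scale over both ages, or -0.21 within young and -1.45 within aged animals. Under it 4 of the 34 standard members were positive over both ages and 0 members passed. Of all 14061 genes, 10 passed as higher and 1113 as lower under it. With no scaling factors the median of all genes moved by -0.29, 25 of 34 were positive and 0 members passed. Of all genes, 51 then passed as higher and 1164 as lower. A scaling factor moves all genes of a library alike, so the members' place against the median gene is nearly fixed in advance. Their median lay 0.46 above the median gene with TMM, 0.45 with no factors and 0.47 with hepatocyte markers, with 33 of 34 above it each time. This describes where the members lie and does not test the difference. Within young mice the members lay 0.43 above the median gene under all 3 scalings, and within aged mice 0.48, 0.49 and 0.60 above it. The aged value depends on the libraries: with aged diploid replicates 1 and 2 left out it was 0.22 with TMM (median 0.30, 33 of 34 positive). Macrophage and Kupffer cell markers moved with ploidy. Of the 12, all were called lower in polyploid cells over both ages and within aged mice, and 0 within young mice (edgeR, adjusted p under 0.05), where their median log2 difference was -2.83. Over both ages endothelial (9 of 9, median -3.13), stellate and fibroblast (6 of 7, -2.96) and MHC class II markers (4 of 4, -4.22) were lower in polyploid cells too. Of the 30 hepatocyte markers 0 passed, with medians of 0.44 over both ages, 0.22 within young and 0.56 within aged animals, beside 0.40, 0.37 and 0.50 for the standard members. Sums of the macrophage and Kupffer cell markers in young mice were 641.7 to 815 CPM in diploid and 59.98 to 237 CPM in polyploid libraries.

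**Figure D1:**
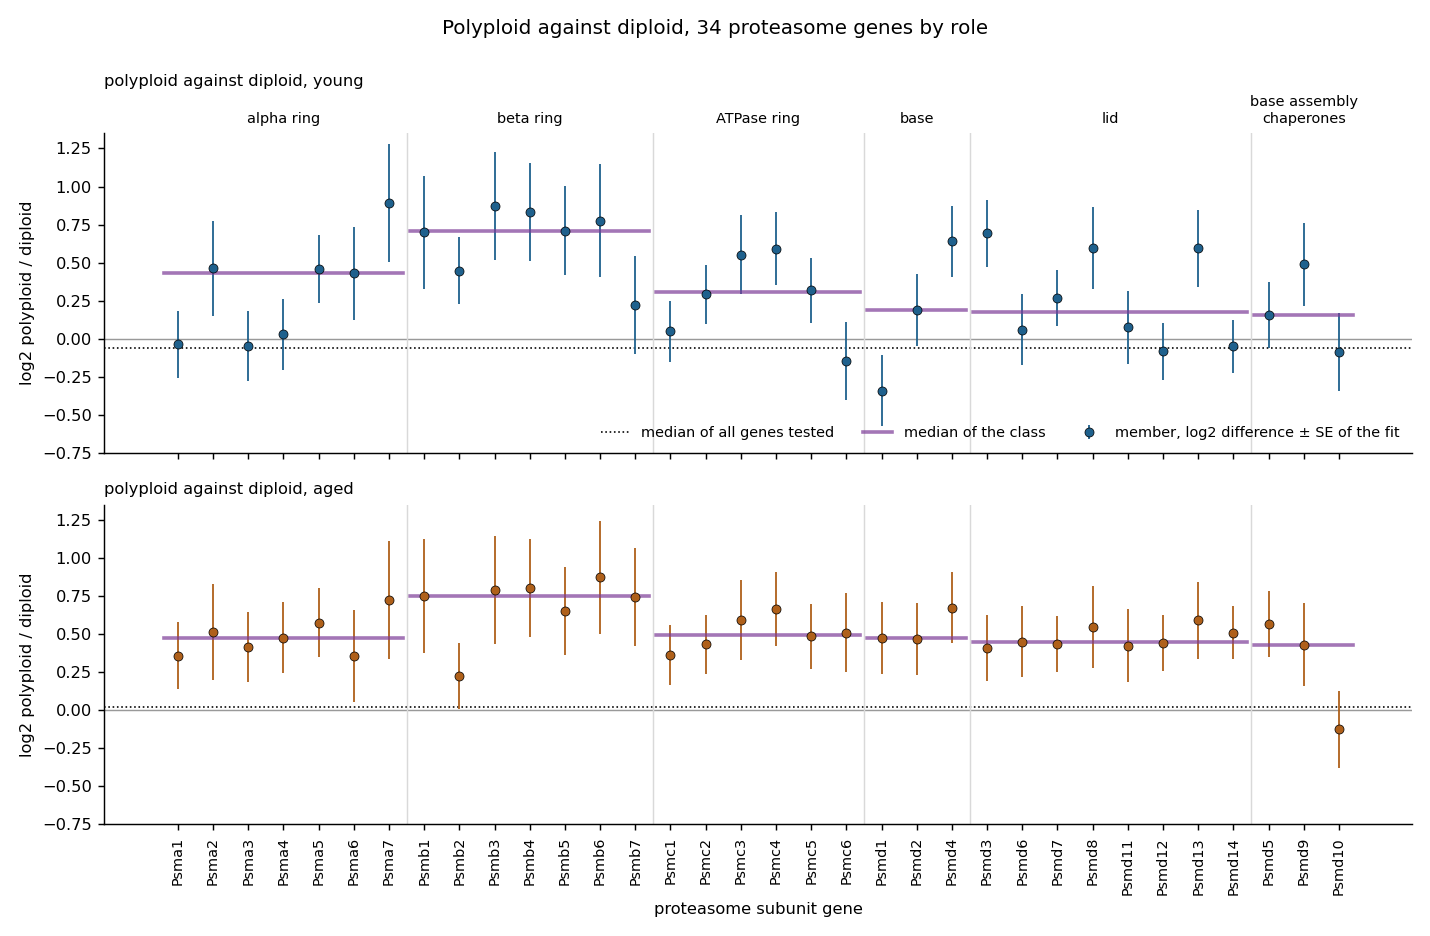
Log2 difference of polyploid against diploid cells for the 34 standard members, by role in the particle, in young mice (top) and aged mice (bottom). Points are the fitted differences, bars their SE, purple lines the median of each class and the dotted line the median of all genes tested; zero moves with the scaling, and with hepatocyte marker scaling 21 of 34 members were positive in young and 0 in aged mice. The beta ring has the highest class median in both ages (0.71 and 0.75).

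The same libraries blocked by mouse, so that each fraction is set against the other of its animal, gave 15 members past the threshold over both ages, all higher, against 24.1% of all genes in either direction and 8.9% as higher. DESeq2 gave 17, all higher (17.5% of genes in either direction, 5.26% as higher). The count of 4 was not stable to the libraries used. Leaving out any 1 of the 6 young libraries, or replicate 1 of either aged group, left 0. In these fits 4.09% to 6.72% of genes passed in either direction and 0.0727% to 0.429% as higher. The share of all genes called moved as well. Leaving out aged polyploid replicate 2 gave 10 members (9.98% of genes in either direction, 2.73% as higher), and aged polyploid replicate 3 gave 1 (3.9% and 0.192%). Leaving out aged diploid replicate 2 gave 4 (6.61% and 0.892%), and aged diploid replicate 3 gave 16 (24% and 8.04%). With no filter on low counts 2 passed (8.83% and 1.84% of 27518 genes). With aged diploid replicates 1 and 2 both left out, the libraries richest in macrophage markers, 0 members passed (1.76% of genes in either direction), while 33 of 34 were positive with a median of 0.35. The same libraries blocked by mouse gave 21 members, all higher, against 37% of all genes in either direction and 16.3% as higher.

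Each mouse was also read on its own, with TMM scaling. The log2 ratio of polyploid to diploid CPM was above 0 in 24, 32 and 25 of the 34 standard members in the 3 young mice and in 33, 31 and 33 in the 3 aged mice. Median ratios were 0.26, 0.44 and 0.40 for the young and 0.45, 0.50 and 0.56 for the aged animals, against -0.02 to -0.06 for all genes. In 20 of 34 members the ratio was above 0 in 6 of 6 mice, which holds for 14.4% of all genes, and 0 members were below 0 in all 6, which holds for 15% of genes.

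**Figure D2:**
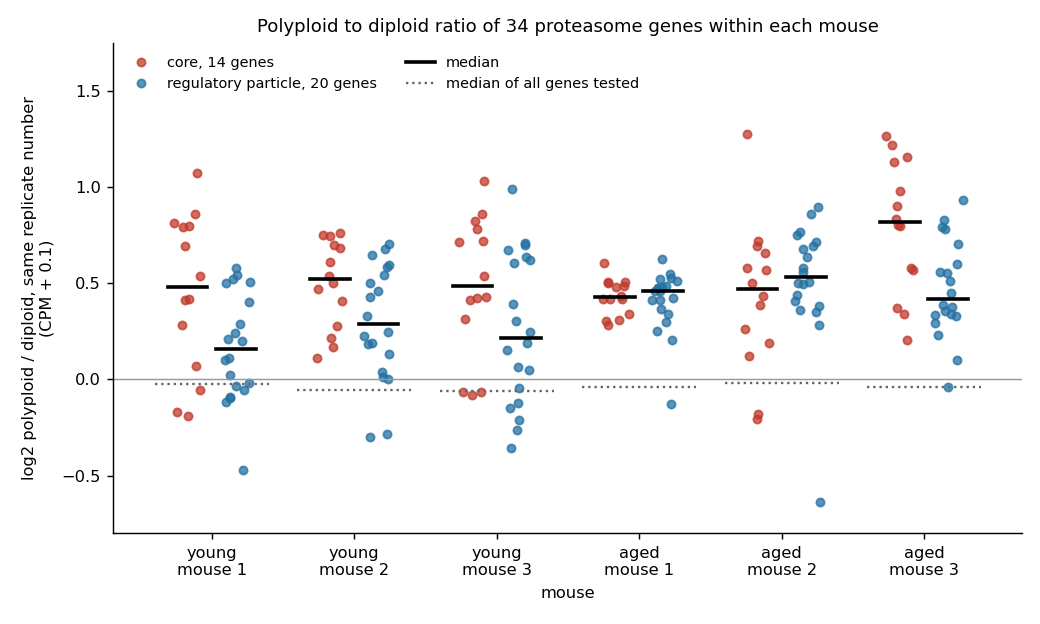
Log2 ratio of polyploid to diploid level within each of the 6 mice (TMM-scaled CPM plus 0.1). Each point is 1 standard member, red for the core and blue for the regulatory particle, bars are their medians and the dotted line is the median of all genes. Core medians are 0.48, 0.52 and 0.48 in young mice and 0.43, 0.47 and 0.82 in aged mice, and regulatory medians are 0.16, 0.29 and 0.22 and then 0.46, 0.53 and 0.42; ratios to the median gene do not move with the scaling.

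Class by class, the signs below hold for TMM scaling, since with hepatocyte markers 4 of 34 members stay positive over both ages. In the alpha ring all 7 genes had a positive difference over both ages (median 0.39) and 0 passed. Psma7, an alpha ring subunit with the widest spread among mice in this ring, gave 212.9, 159.1 and 193.2 CPM in the young diploid libraries and 447.2, 258.4 and 341.3 CPM in the young polyploid ones. The aged diploid libraries had 148.2, 161.3 and 198.5 CPM and the aged polyploid ones 187.4, 175.4 and 477 CPM. The young groups did not overlap, while in aged mice replicate 3 of the polyploid group stood far above the rest (both ages log2 difference 0.81, SE 0.27, adjusted p = 0.0869, or 0.0338 when blocked by mouse). Psma5, another alpha ring subunit, gave 115.4, 107.6 and 115.5 CPM (diploid, 112.8 ± 4.548) and 140.7, 156.4 and 167.8 CPM (polyploid, 154.9 ± 13.61) in young mice. Its aged libraries gave 86.35, 94.32 and 94.02 CPM (diploid) and 120.5, 113.3 and 175.6 CPM (polyploid). Its fractions did not overlap in either age (115.5 against 140.7 CPM at the nearest in young, 94.32 against 113.3 in aged). Its log2 difference over both ages was 0.52 (SE 0.16, adjusted p = 0.0649, or 0.0429 when blocked by mouse). Psma1, Psma3 and Psma4 had young differences of -0.04, -0.05 and 0.03, next to aged differences of 0.36, 0.41 and 0.47.

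The beta ring had the highest class median over both ages, 0.72 over 7 genes, all positive, of which Psmb4 passed. Psmb4, a non-catalytic subunit of the ring (ENSMUSG00000005779, chr3:94884093-94886961, minus strand, GRCm38), gave 127.4, 98.17 and 117 CPM in the young diploid libraries and 231.5, 166.5 and 212.6 CPM in the young polyploid ones. The aged diploid libraries gave 86.44, 73.4 and 107.3 CPM and the aged polyploid ones 122.6, 104 and 238.9 CPM. The fractions were apart in young mice and overlapped in aged mice, where diploid replicate 3 lay above polyploid replicate 2. Psmb4 rose 1.76-fold over both ages (log2 0.82, SE 0.23, adjusted p = 0.0452, or 0.0108 when blocked by mouse). Against hepatocyte markers its log2 difference was 0.04, where the median gene had moved by -0.83.

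The 3 catalytic subunits did not pass over both ages. Psmb6, which cuts after acidic residues, gave 301.5, 226.4 and 305.8 CPM in the young diploid libraries and 521.7, 379.7 and 526.6 CPM in the young polyploid ones. Its aged libraries gave 210.3, 145.9 and 255.9 CPM (diploid) and 284.2, 240.6 and 595.7 CPM (polyploid). Young fractions were apart, and aged fractions met through diploid replicate 3 and polyploid replicate 2 (both ages log2 0.82, SE 0.26, adjusted p = 0.0736, or 0.0171 when blocked by mouse). Psmb5, which cuts after hydrophobic residues, gave 156.2, 159.1 and 170.5 CPM in the young diploid libraries and 271.2, 242.7 and 280.8 CPM in the young polyploid ones. Aged values were 120.3, 90.64 and 153.9 CPM for the diploid and 161, 143.1 and 268 CPM for the polyploid fraction. Its pattern was that of Psmb6 (log2 0.68, SE 0.21, adjusted p = 0.0619, or 0.0154 when blocked by mouse).

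Psmb7, which cuts after basic residues, gave 102.1, 82.22 and 100.9 CPM in the young diploid libraries and 107.1, 99.75 and 125.5 CPM in the young polyploid ones, which overlap. With age, diploid libraries read 64.98, 33.27 and 86.93 CPM and polyploid libraries 98.99, 80.83 and 130 CPM. The lowest value was that of aged diploid replicate 2, the library poorest in hepatocyte markers. Its log2 difference was 0.22 in young and 0.74 in aged mice, and it was the only member past the threshold within aged mice when blocked by mouse (adjusted p = 0.0366). Over both ages its adjusted p was 0.185, and 0.0391 when blocked by mouse. Psmb7 shares exon bases with Nek6 on the other strand, and no source used here gives the strand setting of the counting.

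In the base, Psmc4 and Psmd4 rose. Psmc4, a subunit of the ATPase ring (ENSMUSG00000030603, chr7:28041707-28050101, minus strand), gave 126.1, 121.6 and 115.1 CPM in the young diploid libraries and 181.2, 182.3 and 183.6 CPM in the young polyploid ones. The aged diploid libraries gave 105.8, 73.93 and 110 CPM and the aged polyploid ones 147.4, 121.2 and 190.7 CPM. The fractions did not overlap in either age, and it rose 1.55-fold (log2 0.63, SE 0.17, adjusted p = 0.0414, or 0.0152 when blocked by mouse). The other 5 ATPases had positive differences as well (class median 0.38). Psmc3, an ATPase whose tail docks into the core, gave 147.6, 123 and 127.5 CPM (diploid) and 209, 179 and 196.2 CPM (polyploid) in young mice. Aged values were 114.1, 99.21 and 122.9 CPM for the diploid and 144.2, 127.6 and 234.9 CPM for the polyploid fraction. Its libraries stayed apart in both ages (log2 0.57, SE 0.18, adjusted p = 0.0752, or 0.0341 when blocked by mouse).

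Psmd4, a ubiquitin receptor of the base (ENSMUSG00000005625, chr3:95032694-95042614, minus strand), gave 102.4, 98.42 and 99.14 CPM in the young diploid libraries and 152.8, 160.1 and 154.3 CPM in the young polyploid ones. Its aged libraries gave 85.4, 72.64 and 96.94 CPM (diploid) and 131.7, 102.7 and 172.1 CPM (polyploid). No diploid library reached a polyploid one of its age. Psmd4 rose 1.58-fold, with the smallest p of all members (log2 0.66, SE 0.16, adjusted p = 0.0295, or 0.0126 when blocked by mouse). It was also the most even across mice, with a mean log2 ratio of 0.64 ± 0.11 (SD, 6 mice). Its promoter and that of Psmb4 lie on the same chromosome, 155356 bases apart.

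In the lid all 8 genes had positive differences over both ages (median 0.30) and Psmd3 passed. Psmd3, a scaffold subunit of the lid (ENSMUSG00000017221, chr11:98682554-98695979, plus strand), gave 88.38, 83.7 and 70.74 CPM in the young diploid libraries and 125.4, 126.6 and 140.6 CPM in the young polyploid ones. Aged values were 86.87, 67.46 and 85.49 CPM for the diploid and 124.7, 86.15 and 107.3 CPM for the polyploid fraction. Young fractions were far apart, while aged polyploid replicate 2 lay just below the highest aged diploid library. Psmd3 rose 1.46-fold (log2 0.55, SE 0.16, adjusted p = 0.048, or 0.0244 when blocked by mouse).

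The 3 genes of base assembly chaperones that carry a Psmd symbol were Psmd5, Psmd9 and Psmd10, with differences of 0.36, 0.46 and -0.11 over both ages and none past the threshold. Psmd10 (gankyrin), at a mean of 20.08 CPM over 12 libraries, was the only standard member with a negative difference over both ages (adjusted p = 0.715).

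**Figure D3:**
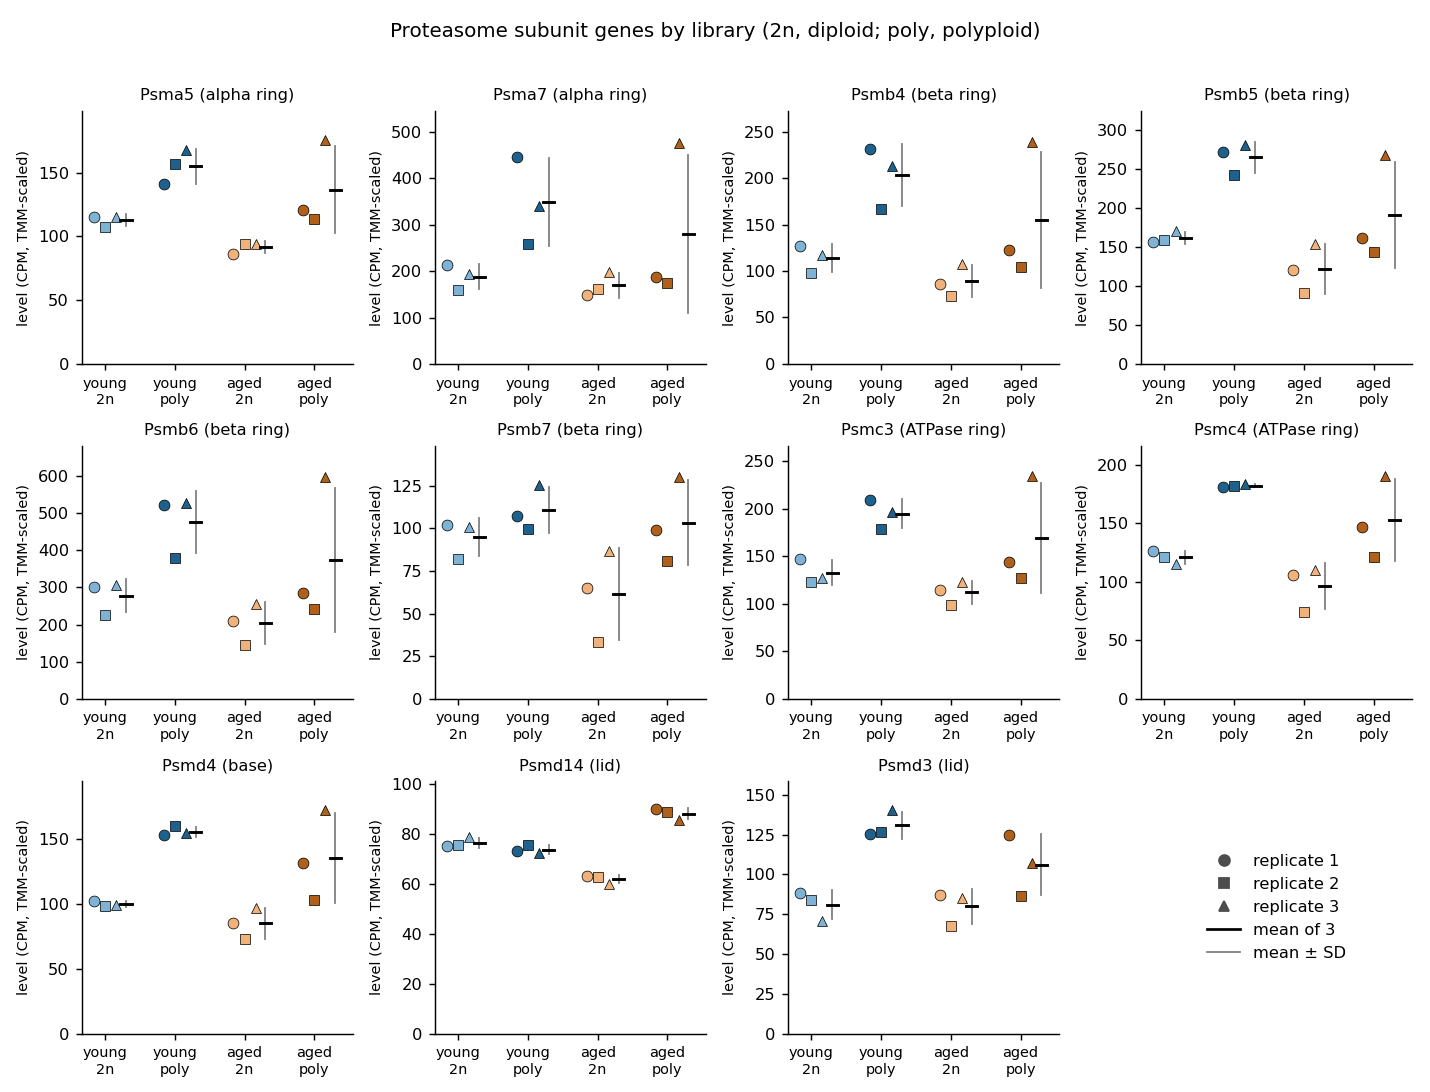
Level of 11 members in each of the 12 libraries (TMM-scaled CPM, linear axes from 0). Marker shapes are replicates 1, 2 and 3, the black dash is the mean of 3 and the grey bar the SD, with diploid groups in light and polyploid groups in dark colours. Psmd4 and Psmc4 show fractions apart in both ages, aged polyploid replicate 3 is the highest library of its group in 9 of the 11 panels, and Psmd14 separates the fractions in aged mice alone; the direction between fractions turns with hepatocyte marker scaling for 9 of the 11 genes over both ages.

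Within young mice 0 of 35 members passed in the fit of all 12 libraries, in which 0% of all genes passed and 9 members had an unadjusted p under 0.05, against 12.4% of genes. DESeq2 also called 0 members (0.541% of genes). With the young libraries fitted alone, 11 members passed, all higher, against 11.8% of 12885 genes in either direction and 5.49% as higher. These were Psma7, Psmb3, Psmb4, Psmb5, Psmb6, Psmc3, Psmc4, Psmd3, Psmd4, Psmd8 and Psmd13, with adjusted p from 0.0242 (Psmb5) to 0.048 (Psmc3). In 19 of the 34 standard members every young polyploid library lay above every young diploid one, against 16.8% of all genes. The reverse held for Psmd1 alone, against 19.1% of genes. Blocked by mouse and without aged diploid replicates 1 and 2, 20 members passed, 19 higher and Psmd1 lower, against 32.4% of genes.

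Within aged mice 0 of 35 members passed, against 9.69% of all genes in either direction and 0.363% as higher. Of the members, 16 had an unadjusted p under 0.05, against 20.5% of genes. DESeq2 called 6, all higher (13.1% of genes in either direction, 1.19% as higher): Psmc2, Psmc4, Psmd4, Psmd7, Psmd12 and Psmd14. Blocked by mouse, 1 passed, Psmb7, as higher (15.7% of genes in either direction, 3.51% as higher). Without the block, leaving out aged diploid replicate 3 gave 4 (21.6% of genes in either direction, 3.79% as higher). In 14 of 34 members every aged polyploid library lay above every aged diploid one, against 6.35% of genes, and in 0 the reverse held, against 12.8%. The 14 included all 6 ATPases of the base (Psmc1 to Psmc6). They also included Psma3, Psma5, Psmd2, Psmd4, Psmd5, Psmd7, Psmd12 and Psmd14.

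Psmd14, the deubiquitinase of the lid that cuts the ubiquitin chain off the substrate, had tight replicates. It gave 75.16, 75.5 and 78.63 CPM in the young diploid libraries and 73.31, 75.73 and 72.31 CPM in the young polyploid ones. With age, diploid libraries read 63.16, 62.87 and 59.96 CPM and polyploid libraries 90.23, 88.74 and 85.65 CPM. Aged diploid libraries were thus the lowest and aged polyploid libraries the highest of the 12, with no overlap with either young group, while the young fractions met. Its transcript has a low GC content (43.22%). With the GC content correction described below, the difference between aged and young polyploid libraries was close to none. The difference of differences was 0.56 on the log2 scale (SE 0.24). It did not pass in edgeR (adjusted p = 0.426, or 0.351 when blocked by mouse) and passed in DESeq2 (adjusted p = 0.015), the only member called there. With hepatocyte marker scaling it was -0.67, where the median gene had moved by -1.45 in aged and -0.21 in young mice.

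The interaction of age and ploidy gave 0 members past the threshold, and 0% of all genes passed. Of the members, 2 had an unadjusted p under 0.05 (11% of genes), Psmd1 and Psmd14, and DESeq2 called 1 (3.48% of genes). Psmd1, a large scaffold of the base, gave 147.4, 173 and 151.9 CPM in the young diploid libraries and 106.2, 140.4 and 126.4 CPM in the young polyploid ones. The aged diploid libraries gave 140.8, 106.4 and 130.3 CPM and the aged polyploid ones 205.7, 179.1 and 139.6 CPM. It was the only member whose young polyploid libraries all lay below the young diploid ones. Psmd1 shares exon bases with the predicted gene Gm21972 on the same strand.

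Core and regulatory genes were also summed. In young mice the 14 standard core genes summed to 2368 ± 279.7 CPM (diploid) and 3405 ± 419.3 CPM (polyploid), and the 20 regulatory genes to 2043 ± 76.57 and 2459 ± 40.15 CPM. In aged mice the core sums were 1791, 1642 and 2266 CPM in diploid and 2406, 2143 and 4107 CPM in polyploid libraries. Regulatory sums were 1798, 1447 and 1904 CPM and then 2439, 2129 and 2670 CPM. Aged polyploid replicate 3 thus had the highest core sum and the highest regulatory sum of the 12 libraries, with the regulatory sum closer to its group. Its scaling factor, 0.8368, was the lowest of the 12.

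The ratio of core to regulatory CPM does not depend on the scaling. In young mice it went from 1.215 to 1.539, from 1.025 to 1.172 and from 1.234 to 1.449 between the diploid and the polyploid fraction, higher in 3 of 3 mice. Within aged mice it was 0.9964, 1.134 and 1.19 in diploid and 0.9862, 1.007 and 1.538 in polyploid libraries, lower in the first 2 mice and higher in the third. By class, the median young difference was 0.46 for the core and 0.23 for the regulatory particle, and the median aged difference 0.61 and 0.47. These are descriptions over genes of the same libraries, without a test.

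Per kb of exon, the most abundant standard members over the 12 libraries were Psmb1 (237.1 CPM per kb), Psma2 (216) and Psmb5 (212.1). The least abundant were Psmd9 (5.544 CPM per kb), Psmd5 (8.999) and Psmd10 (13.67), the 3 assembly chaperones. The order depends on the length used: per kb of 1 transcript, Psmb6 led (344.6 CPM per kb), and Psmb1 and Psma2 came to 124.7 and 70.04. All members together took 0.4303 ± 0.02255% (diploid) and 0.5071 ± 0.0148% (polyploid) of the counts of young libraries, and 0.445 ± 0.06628% (diploid) and 0.5013 ± 0.05764% (polyploid) of those of aged libraries.

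The young differences of the members ran with the GC content of their transcripts. Across the 34 standard members the correlation of GC content with the log2 difference was 0.69 for the young, 0.35 for the aged and 0.63 for the joint comparison. The points share libraries and are a description. The 17 members of lower GC content (36.97% to 49.24%) had a young median of 0.06, with 10 of 17 positive, and the 17 of higher GC content (49.47% to 57.36%) a young median of 0.59, with 17 of 17 positive. In aged mice the medians were 0.47 and 0.59. All genes ran the same way in young mice, with medians from -0.39 in the lowest of 5 bins of GC content to 0.30 in the highest, and far less in aged mice, from -0.01 to 0.05. All 4 members that rose are among the 17 of higher GC content (52.24% to 55.36%). Psmd14 (43.22%) and Psmb7 (40.79%) are among the other 17.

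**Figure D4:**
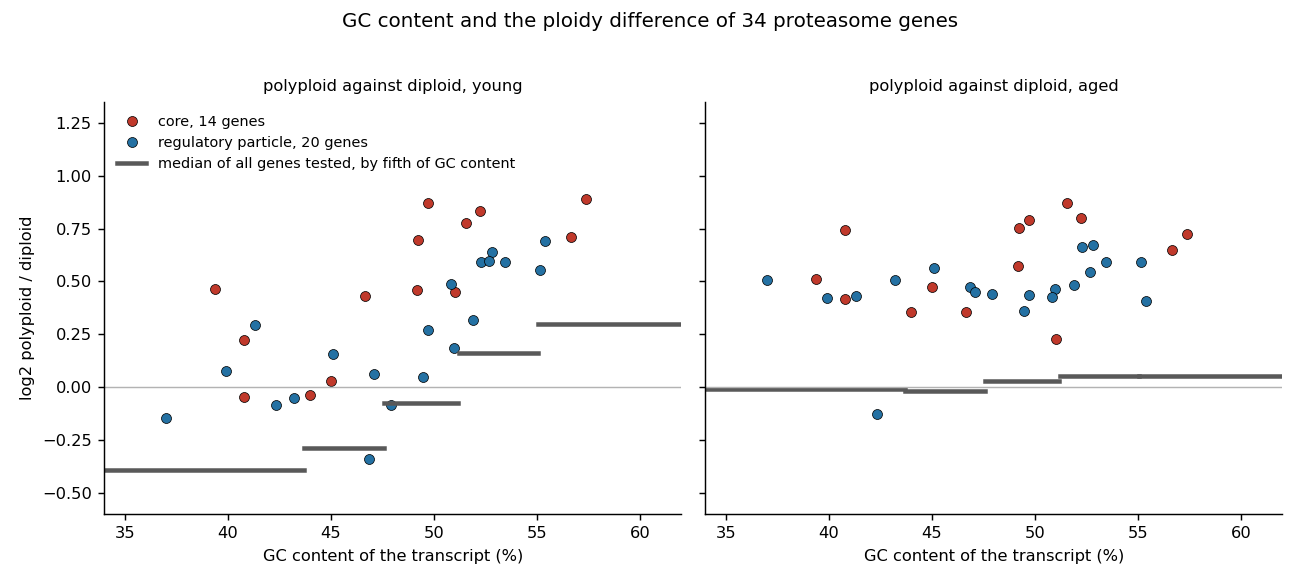
Log2 difference of polyploid against diploid cells and GC content of the transcript for the 34 standard members, in young mice (left) and aged mice (right). Points are members (red core, blue regulatory particle) and grey bars the median of all genes in each of 5 bins of GC content. In young mice members and genes climb together, while in aged mice the bars are flat and members lie around 0.50; the height of points and bars moves together with the scaling.

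With each library's levels corrected for GC content, a choice made after seeing the data, the young median was 0.43 with 33 of 34 positive, the aged median 0.51 and that over both ages 0.44. The correlation with GC content was then 0.12 for the young and 0.23 for the aged comparison. Over both ages 3 members passed, all higher, against 8.19% of genes in either direction and 0.74% as higher: Psmd4 (0.57, adjusted p = 0.0367), Psmc4 (0.56, adjusted p = 0.0458) and the ATPase Psmc2 (0.56, adjusted p = 0.045). Psmb4 (0.74, adjusted p = 0.0517) and Psmd3 (0.43, adjusted p = 0.0947) did not pass, where their uncorrected differences were 0.82 and 0.55. Blocked by mouse as well, 16 members passed, against 22% of genes. With a correction for exon length the median over both ages was 0.30, with 29 of 34 positive. Then 4 members were past the threshold, against 7.79% of genes in either direction and 0.789% as higher. The young median fell to 0.24 (24 of 34 positive), or 0.26 above the median gene. The aged median was 0.49 (31 of 34 positive), or 0.475 above it. Within aged mouse 3 the polyploid to diploid ratios of the members also ran with GC content. The correlation was 0.51, against 0.02 and -0.10 in the other aged mice and 0.59 to 0.71 in the young mice. Over all genes, the median ratio of aged mouse 3 went from -0.11 in the lowest bin to 0.03 in the highest. Such a ratio cannot tell which library of the mouse this comes from.

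Aging within the diploid fraction gave 0 of 35 members past the threshold (edgeR), against 3.93% of all genes in either direction and 0.171% as lower. Of the members, 1 had an unadjusted p under 0.05 (19.6% of genes), and DESeq2 called 2 (11.7% of genes): Psmd14 lower (adjusted p = 0.0247) and Psma8 higher (adjusted p = 0.0271). Of the 34 standard members 2 were positive, with a median of -0.30, and 11 had every aged library below every young one, against 7.57% of all genes. In 0 standard members the reverse held, against 13.3% of genes. The median member lay 0.39 below the median gene with TMM, 0.40 below with no factors and 0.50 below with hepatocyte markers, under which that gene itself moved by 1.36 and all 34 members were positive. Psmb7 had the lowest difference, -0.62 (SE 0.32, adjusted p = 0.321). The aged diploid group is the one with the macrophage marker sums of 1157 to 22040 CPM. The size of the drop depends on which of its libraries are used. With replicates 1 and 2 of that group left out, the median of the standard members was -0.09, or 0.07 below the median gene, and 10 of 34 were positive. The lone aged diploid library is then assumed to vary like the other groups. Without replicate 1 alone the median was -0.31, or 0.40 below the median gene, so the drop was no smaller. Without replicate 2 alone it was -0.22, or 0.23 below, and without replicate 3 alone it was -0.48, or 0.54 below. The part of other cell types in the drop was not tested. Macrophage and Kupffer (3 of 12), endothelial (6 of 9), stellate and fibroblast (5 of 7) and MHC class II markers (4 of 4) rose with age in this fraction, and the hepatocyte markers' median was -0.48 (0 of 30 passed). In aged diploid replicate 3, which has the lowest sum, the core and regulatory sums (2266 and 1904 CPM) lay within or just under the young diploid ranges (2054 to 2590 and 1994 to 2131).

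Aging within the polyploid fraction also gave 0 of 35 members past the threshold, with 0 at an unadjusted p under 0.05 (9.17% of genes) and 0 called by DESeq2, against 0.0356% of all genes in edgeR and 1.08% in DESeq2. The differences of the standard members ran from -0.47 for Psmb5 (adjusted p = 0.634) to 0.49 for Psmd1 (adjusted p = 0.556). The median was -0.26 for the 14 core genes and 0.02 for the 20 regulatory genes. Over the 34 it was -0.16, and it went to -0.05 without aged polyploid replicate 2 and to -0.36 without aged polyploid replicate 3. Aged libraries all lay above the young ones for Psmd5, Psmd7, Psmd12 and Psmd14 (9.83% of genes) and all below for Psmb2 and Psmd3 (6.82% of genes). The correlation with GC content was -0.63 over the 34 members. After the correction it was 0.16 and the difference of Psmd14 was -0.03. The ploidy and aging comparisons share libraries, so their values are given side by side only.

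Psma8, which replaces Psma7 in the testis, was low throughout. Young libraries gave 0.8498, 1.066 and 0.8467 CPM (diploid) and 1.116, 1.043 and 0.2854 CPM (polyploid). Aged libraries gave 1.994, 3.648 and 3.043 CPM (diploid) and 1.618, 1.054 and 2.814 CPM (polyploid). Aged diploid libraries all lay above young diploid ones (log2 1.65, SE 0.55, adjusted p = 0.105 in edgeR).

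Genes that work with the proteasome were read from fixed lists. Of 6 tested further subunits and bound factors, 1 rose in polyploid cells over both ages: Adrm1, a further ubiquitin receptor of the cap. It gave 77.9, 70.66 and 65.12 CPM in the young diploid libraries and 117, 126.7 and 114.3 CPM in the young polyploid ones. Its aged libraries gave 63.42, 54.25 and 71.33 CPM (diploid) and 103.2, 73.07 and 115.8 CPM (polyploid), without overlap in either age. Its log2 difference was 0.69 (SE 0.16, adjusted p = 0.0207), and -0.09 with hepatocyte marker scaling. The deubiquitinases of the same list, Usp14 and Uchl5, were at -0.04 (adjusted p = 0.886) and -0.09 (adjusted p = 0.73).

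Of the 5 core assembly chaperones 0 passed, 5 were positive and the median was 0.56. Blocked by mouse, 2 passed as higher, against 8.9% of all genes. These were Psmg1 (0.62, adjusted p = 0.00903) and Psmg3 (0.71, adjusted p = 0.00948), partners in the pairs that order the alpha ring. Of the activators and the inhibitor 0 of 5 passed and 4 were positive (median 0.23). The interferon-inducible cap genes were closest to the threshold, Psme2 at 0.64 (adjusted p = 0.0927) and Psme1 at 0.50 (adjusted p = 0.122). Of 7 genes for the transcription of subunit genes 0 passed, and 1 was positive (median -0.31). Nfe2l1, the factor that raises subunit genes, averaged 53.56 ± 1.775 CPM in the diploid and 39.41 ± 8.962 CPM in the polyploid fraction of young mice (both ages -0.31, adjusted p = 0.292). Nfe2l2 was at -0.47 (adjusted p = 0.287), with its highest level, 115.8 CPM, in aged diploid replicate 2. The smallest p of that list was that of Maff, at about 1 CPM (-1.09, adjusted p = 0.152).

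The immunoproteasome genes replace the catalytic ones one for one. None of the 3 passed over both ages (Psmb8 -0.36, Psmb9 -0.30 and Psmb10 0.24, adjusted p = 0.447, 0.548 and 0.525). These values average 2 directions. With TMM scaling 3 of 3 were positive within young mice (median 0.33) and 0 of 3 within aged mice (median -0.93). Psmb8 gave 58.73, 65.7 and 90.75 CPM in the young diploid libraries and 69.53, 84.78 and 105.7 CPM in the young polyploid ones. Aged values were 84.71, 225.1 and 53.12 CPM for the diploid and 57.87, 69.76 and 54.01 CPM for the polyploid fraction. The value of aged diploid replicate 2 stood far above all others. Psmb9 and Psmb10 were also highest of their group there, at 106.9 and 90.03 CPM.

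The ratio of an inducible subunit to the one it replaces needs no scaling. Psmb8 to Psmb5 was 0.3759, 0.413 and 0.5324 in young diploid and 0.2564, 0.3493 and 0.3763 in young polyploid libraries. In aged mice it was 0.7039, 2.484 and 0.3452 in diploid and 0.3596, 0.4874 and 0.2015 in polyploid libraries. It was lower in the polyploid fraction of 6 of 6 mice, with a mean log2 difference of -0.90 ± 0.75 (SD). Psmb9 to Psmb6 was also lower in 6 of 6 mice, -0.98 ± 0.80 (SD). The two-sided exact permutation test over mice gave p = 0.0312 for each, the smallest that 6 mice allow, and 0.0469 adjusted over the 3 ratios. Psmb10 to Psmb7 was lower in 2 of 6 mice (-0.26 ± 1.16, exact permutation p = 0.781). These ratios were added after the data were seen, so their p-values are descriptive. Psmb5 and Psmb6, the denominators, were already known to be higher in the polyploid fraction of 6 of 6 mice with TMM scaling. In young mice Psmb8, Psmb9 and Psmb10 were higher in the polyploid fraction of each mouse as well, with the same scaling. Summed macrophage markers were lower in the polyploid fraction of the same 6 mice, and their part in the ratios was not tested.

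**Figure D5:**
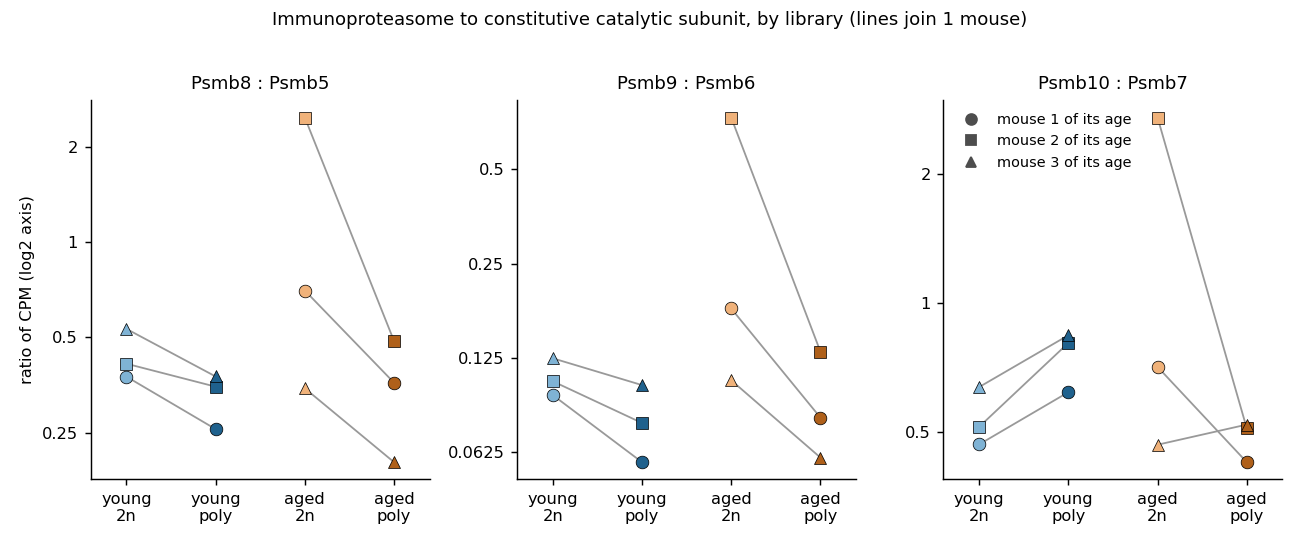
Ratio of each immunoproteasome subunit gene to the constitutive gene it replaces, by library (log2 axis). Lines join the 2 fractions of 1 mouse, and shapes mark mice 1, 2 and 3 of each age. Psmb8 to Psmb5 and Psmb9 to Psmb6 go down in all 6 mice, Psmb10 to Psmb7 goes up in 4 of 6, and aged diploid replicate 2 has the highest ratio in every panel (2.484, 0.7323 and 2.706).

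Near-identical copies touch some of these counts. Processed pseudogenes of at least 95% identity over 200 bases or more exist for 9 members (Psma2, Psma3, Psma4, Psma5, Psmb3, Psmb5, Psmc1, Psmd2 and Psmd11), and reads could be split between gene and copy. The copies hold few counts: 2582 against 64691 for Psma3, 1903 against 46502 for Psmb5 and 1231 against 31903 for Psma5. These counts do not bound the reads lost if reads that match both gene and copy were left out of the counting. None of the 4 members that rose is among the 9. In the deposited exons 8 members share bases with a gene on the other strand, and without a known strand setting the reads of such pairs cannot be told apart. Psmd13 shares 342 bases with Sirt3 (24775 counts over the 12 libraries, against 25484 for Psmd13), Psmb7 shares 405 with Nek6 (16271 against 23456) and Psmc3 shares 215 with Slc39a13 (2625 against 38567). The partners of Psma4, Psma5, Psmd1, Psmd3 and Psmd9 hold at most 30 counts.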

How the data were processed

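The labels' protocols name a SMART-Seq v4 Ultra Low Input kit for the 12 libraries, 3 per group. The authors deposited 1 table of raw counts by gene for each library, which per the file headers came from featureCounts. Trimmomatic 0.36, STAR 2.5.2b, featureCounts of Subread 1.5.2 and GRCm38 are named in the submitters' processing notes. The strand setting, like the annotation release, was not given in the sources used here. IDs were named through GENCODE M21 (259 of 49315 unmatched, 0.008% of counts). Groups came from the titles.

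In R 4.3.3, edgeR 4.0.16 (TMM, filterByExpr, quasi-likelihood test, 1 mean per group over 12 libraries, Benjamini-Hochberg over 14061 genes, threshold 0.05) tested 6 comparisons. It was tested on simulated data first. The members and lists were chosen with earlier results of these data known. Values by library are given for members past the threshold, Psmb5, Psmb6, Psmb7, Psmd4, Psmd14 and the 2 of smallest p per family. Psmd1, Psma8 and Psmd10 were chosen after their values were seen. From other lists, passing genes or the 2 of smallest p were named, and Psmb8, Psmb9 and Psmb10 always. Usp14, Uchl5 and Nfe2l1 were added for their roles.

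Replicate numbers were checked as mice. Deviations from group means of same-numbered libraries correlated over 8849 genes (r = 0.444, 0.601 and 0.377 for the young and 0.441, 0.5 and 0.492 for the aged animals), and 12 of 12 libraries matched their own number best. Across ages, where mice differ, r was -0.31 to 0.22.

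Alternatives were other scaling factors, other filters, DESeq2 1.42.0, the compared groups alone, the mouse as a block and each library left out. Corrections for GC content and exon length were chosen after seeing the data. GC content was known for 99.77% of genes. Values of some single genes of the fixed lists are not reported here.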

Additional observations from a re-analysis of the deposited data

Results flagged for a closer look

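Psmd1 was singled out because its polyploid to diploid ratio went one way in every young mouse and the other way in every aged mouse. The log2 ratios were -0.47, -0.30 and -0.26 for the young and 0.55, 0.75 and 0.10 for the aged animals. The interaction of age and ploidy was 0.81 on the log2 scale (SE 0.33) and did not pass edgeR's quasi-likelihood test over all genes (adjusted p = 0.389, or 0.292 when blocked by mouse). It was 0.65 with the GC content correction and -0.25 with hepatocyte marker scaling, under which the median gene moved by -1.45 in aged and -0.21 in young mice.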

How the results depend on the processing

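The count of members past the threshold over both ages was 4. It was 0 with no scaling factors, 0 with hepatocyte marker scaling, 2 with no filter, 17 with DESeq2 and 0 with aged diploid replicates 1 and 2 left out. Leaving out 1 library at a time gave 0 to 16. With the replicate block, which pairs the fractions of a mouse, it was 15, with those 2 libraries left out as well 21, with the GC content correction 16 and with the exon length correction 13. Within young mice the count of 0 became 11 with the groups compared alone and 20 with the block and those libraries left out. Within aged mice 0 became 6 with DESeq2, 1 with the block, 3 with the block and either correction, and 0 to 4 with 1 library left out. For aging in diploid cells it became 2 with DESeq2 and 0 to 1 with 1 library left out, and for the interaction 1 with DESeq2. The share of all genes called as higher moved too. Over both ages it was 0.882% (124 genes) for the count of 4 and 5.26% with DESeq2. With no scaling factors 51 genes passed as higher, and with hepatocyte marker scaling 10. With 1 library left out the share ran from 0.0727% to 8.04%. The share was 8.9% with the block, and 8.68% with block and GC content correction. Within aged mice it was 0.363%, then 1.19%, 3.51% and 4.53% in the same order. These larger counts thus came with larger shares, so a rise in the count does not by itself set the members further apart. No share is given here for the block with exon length correction.

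With hepatocyte marker scaling 9 of the 11 named members turned negative over both ages: Psma5 (-0.34), Psma7 (-0.0394), Psmb5 (-0.0479), Psmb7 (-0.12), Psmc3 (-0.23), Psmc4 (-0.10), Psmd14 (-0.60), Psmd3 (-0.21) and Psmd4 (-0.12). With no scaling factors Psmd14 turned to -0.0535. All genes of a library shift alike with these scalings, so the members' place above the median gene could hardly change. No other alternative turned a named member. Depth did not limit the 34 standard members, at 15.21 CPM or more, and did limit Psma8.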

Other observations

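Genes that make and activate ubiquitin gave 0 of 6 past edgeR's threshold over both ages, 5 of 6 positive with a median of 0.31. Blocked by mouse, 2 passed as higher and 1 as lower in polyploid cells, against 24.1% of all genes in either direction. Rps27a, which encodes ubiquitin joined to a ribosomal protein, was among those higher (log2 0.57, adjusted p = 0.0492). The activating enzyme Uba6 was the lower one (-0.87, adjusted p = 0.0185).

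Of 8 genes that deliver substrates to the proteasome 0 passed, and 5 were positive with a median of 0.15. The shuttle factor Ubqln2 was at 0.46 (adjusted p = 0.221).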
